A study of Mus musculus with 8 samples.

Results

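MHC class II presentation was described across 9 genes: H2-Aa, H2-Ab1, H2-Eb1, Cd74, Ciita, H2-DMa, H2-DMb1, H2-DMb2 and H2-Ob. The rule takes them by gene symbol and uses no measured value, although the set was drawn up with earlier results of these data known, and 19 of the 56605 probes on the array carried one of these symbols. To enter the test, a probe had to stand well above background on 3 or more of a group's 4 arrays, which held for 12 of the 19 probes and 7 of the 9 genes, among 30955 probes and 16495 genes tested in all. One group of 4 liver samples (Tx) came from female NFS/sld mice thymectomised as newborns, on day 3 of life, and sampled 8 weeks later, and the other group of 4 (nonTx) came from female NFS/sld mice that kept their thymus. The Tx mice serve as a model of primary Sjögren's syndrome, in which the immune system attacks the glands that make saliva and tears, and the comparison asks how the liver's class II transcripts stand once the organ in which T cells mature is gone. The labels give neither the age of the nonTx mice nor any sham operation, and they call the replicates independent without naming separate animals, so the p-values rest on the spread between these samples, which may be technical.

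MHC class II molecules show peptides from engulfed material to CD4+ T cells. An alpha and a beta chain pair in the endoplasmic reticulum around the invariant chain, Cd74, which blocks the groove and steers the complex to endosomes, where H2-DM removes the last piece of the invariant chain and loads peptide while H2-O holds H2-DM back. In the liver, Kupffer cells, dendritic cells and B cells carry these molecules most. The coactivator Ciita, which interferon gamma induces in many cell types, switches class II transcription on.

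Ciita does not bind DNA itself but docks on proteins that sit on the X and Y boxes of class II promoters. The stretches with these boxes are shown to place the members within this known arrangement. 3 of them belong to tested members, H2-Eb1, H2-DMb1 and H2-Aa, and the other 2 to H2-DMb2 and H2-Ob, which were not tested. RefSeq promoter windows (GRCm38.p6, 250 bases before to 50 after the start) were examined here for 6 members, 7 windows in all, on chromosome 17. Of these 6 members, 5 held an X-type box followed by a Y box on the same strand. Cd74 was not among the members examined. Each stretch reads 5′ to 3′ on the gene's strand, and the capitals mark the 2 boxes.
H2-Eb1, chr17:34305766-34305820, plus strand: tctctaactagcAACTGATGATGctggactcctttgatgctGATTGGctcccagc
H2-DMb1, chr17:34153087-34153142, plus strand: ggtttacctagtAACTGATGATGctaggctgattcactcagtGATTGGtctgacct
H2-DMb2, chr17:34145116-34145171, plus strand: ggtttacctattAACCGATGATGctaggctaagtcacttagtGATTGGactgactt
H2-Ob, chr17:34238808-34238860, plus strand: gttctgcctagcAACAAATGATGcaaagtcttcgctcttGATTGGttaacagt
H2-Aa, chr17:34287859-34287909, minus strand: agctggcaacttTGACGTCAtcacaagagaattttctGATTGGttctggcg
The X box was searched as AAC and TGATG with any 3 bases between them, the X2 box, the first box of H2-Aa, as TGACGTCA, and the Y box as GATTGG, all on both strands, and in the stretches printed the boxes do not overlap. These letters were chosen with the members' promoters in view, so the matches are a description. Between the boxes lay 18 bases in H2-Eb1, 19 in H2-DMb1 and H2-DMb2, 16 in H2-Ob and 17 in H2-Aa. Of all 32851 promoter windows of this length, 0.615% held the X box, 1.79% the X2 box and 16.1% the Y box, and 0.0761% held an X or X2 box followed by a Y box with 5 to 30 bases between them. The 2 windows of H2-DMa held neither the X nor the X2 box as spelled here, and 1 of them held a Y box. Of H2-Ab1, which also lies on chromosome 17, Ciita, on chromosome 16, and Cd74 no sequence is shown.

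The share of probes well above background was 51.1% to 55.45% on Tx arrays and 54.24% to 57.12% on nonTx arrays, and arrays correlated pairwise between 0.977 and 0.994. All 8 arrays lay on 1 slide and were scanned together, with the Tx arrays in one row of the slide and the nonTx arrays in the other, so slide row and group cannot be told apart. Values below are scanner intensities as deposited, or log2 intensities minus the array's 75th percentile, which was 330, 249.7, 230.3 and 225 in Tx replicates 1 to 4 and 301.9, 276, 289.1 and 274.2 in nonTx replicates 1 to 4. After this scaling all 10 spike-in RNAs lay above their nonTx mean in Tx, by 0.06 to 0.37 on the log2 scale, opposite in sign to the class II differences below. Hepatocyte markers were bright on every array, with a summed level of 3250 to 3960 times the 75th percentile in Tx and 3540 to 3850 times in nonTx. The class II genes are highly polymorphic between mouse strains, and whether the probes match the NFS/sld alleles was not examined.

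The peptide-binding chains among the members, H2-Eb1, H2-Aa and H2-Ab1, were well above background on every array. Each had a lower mean in Tx that did not pass the test. H2-Eb1, the beta chain of the I-E molecule, had an intensity of 13156, 39062, 17861 and 14226 in Tx replicates 1 to 4, and of 16142, 34155, 33238 and 53188 in nonTx replicates 1 to 4. The groups overlapped: Tx replicate 2 stood among the nonTx arrays and nonTx replicate 1 among the Tx arrays. On the scaled log2 scale H2-Eb1 averaged 6.22 ± 0.82 in Tx and 6.78 ± 0.77 in nonTx (SD, n = 4 each), a difference of -0.57 ± 0.44 (SE; limma, adjusted p = 0.559). H2-Aa, the alpha chain of the I-A molecule, had an intensity of 867, 1932, 930 and 724 in Tx replicates 1 to 4, and of 829, 1913, 1619 and 2934 in nonTx replicates 1 to 4. Again Tx replicate 2 was high and nonTx replicate 1 low within its group, and the difference was -0.53 ± 0.42 (SE; limma, adjusted p = 0.565).

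H2-Ab1, the beta chain that pairs with H2-Aa, was measured by 4 probes on the same 8 arrays. Its brightest probe had an intensity of 11105, 31276, 12586 and 10503 in Tx replicates 1 to 4, and of 11253, 24881, 22139 and 32652 in nonTx replicates 1 to 4. On this probe Tx replicate 2 was the highest of all 8 arrays after scaling, at 6.97 against 6.90 in nonTx replicate 4. The log2 differences of the 4 probes were -0.38 ± 0.42, -0.36 ± 0.42, -0.42 ± 0.44 and -0.49 ± 0.45 (SE). These errors come from the spread between samples, which the 4 probes share, so they do not measure how far the probes disagree. In these bulk liver samples, fewer cells that carry class II and less class II RNA per cell cannot be told apart.

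**Figure D1:**
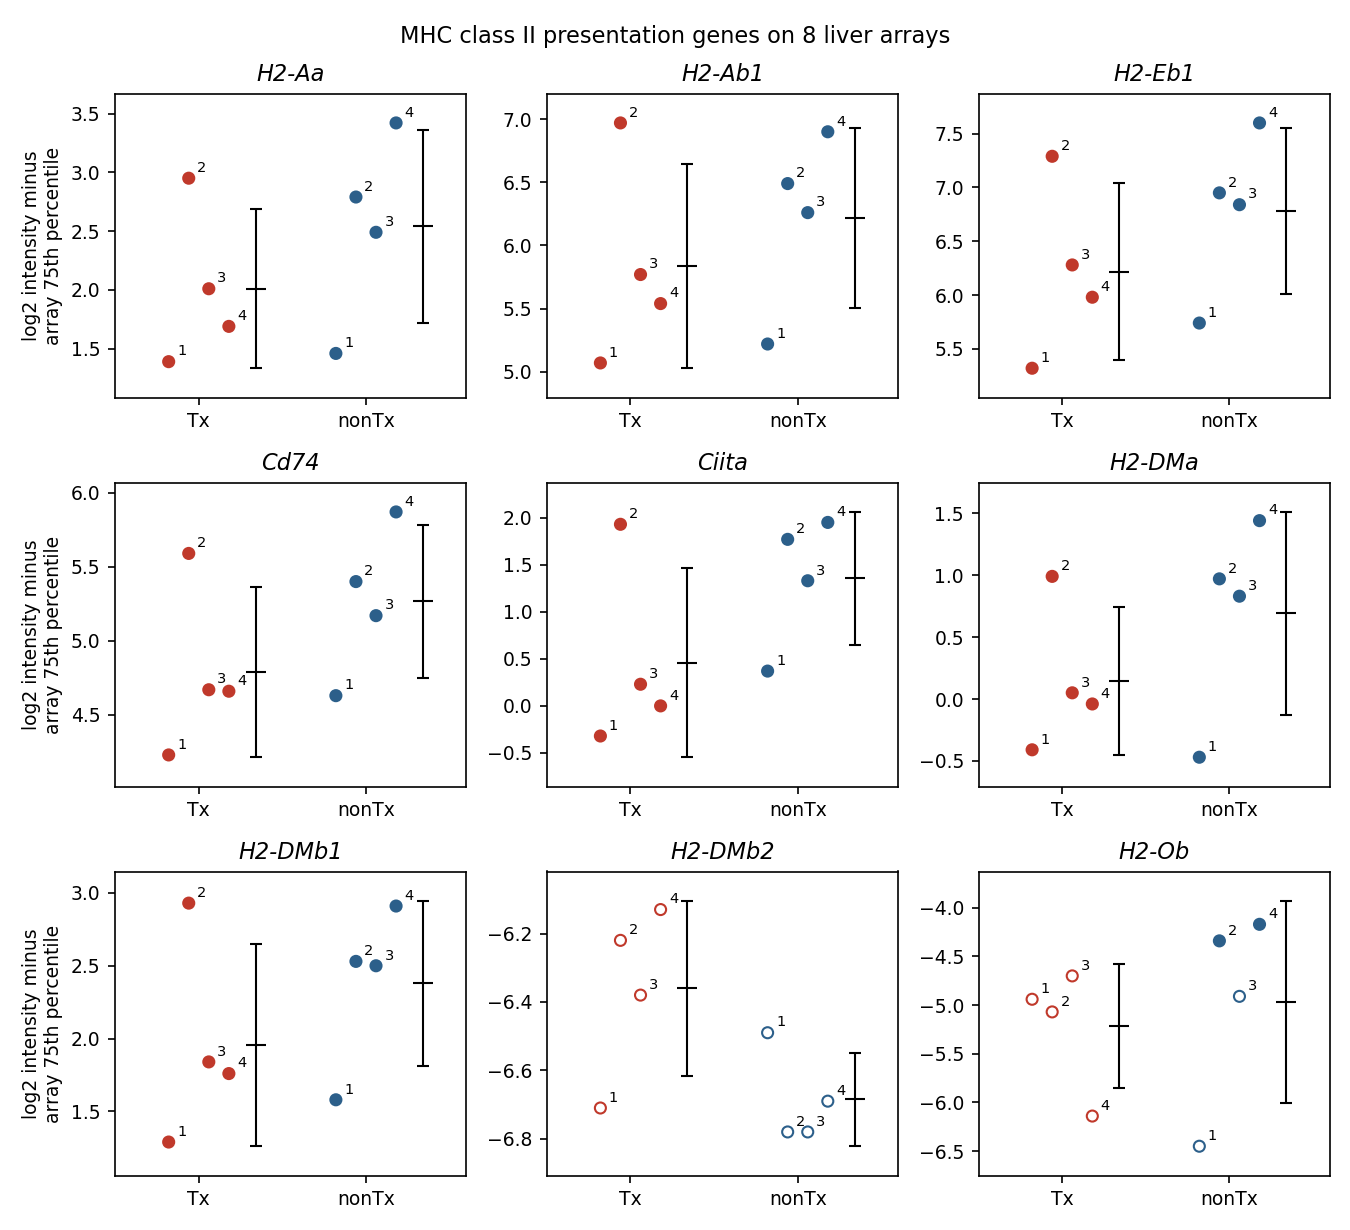
Log2 intensity, scaled to the 75th percentile of its array (vertical axes, a separate scale in each panel) of the 9 class II genes on the 4 Tx and 4 nonTx liver arrays. Each point is 1 array with its replicate number, open points were not well above background, and bars are the mean ± SD (n = 4). In the 7 tested genes, Tx replicate 2 sits with nonTx replicates 2, 3 and 4, and nonTx replicate 1 sits with Tx replicates 1, 3 and 4.

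The invariant chain and the peptide editor also had lower means in Tx that did not pass the test. Cd74, the invariant chain, had an intensity of 6203, 11994, 5871 and 5685 in Tx replicates 1 to 4, and of 7466, 11651, 10384 and 16059 in nonTx replicates 1 to 4. It averaged 4.79 ± 0.57 in Tx and 5.27 ± 0.52 in nonTx on the log2 scale (SD, n = 4 each), a difference of -0.48 ± 0.31 (SE; limma, adjusted p = 0.487). H2-DMa, the alpha chain of the peptide editor H2-DM, had an intensity of 248, 495, 239 and 219 in Tx replicates 1 to 4, and of 218, 540, 514 and 745 in nonTx replicates 1 to 4. This was the one tested member whose lowest scaled array was nonTx replicate 1, at -0.47, against -0.41 in Tx replicate 1. Its log2 difference was -0.55 ± 0.40 (SE; limma, adjusted p = 0.536). H2-DMb1, a beta chain of H2-DM, had an intensity of 809, 1903, 827 and 762 in Tx replicates 1 to 4, and of 901, 1598, 1631 and 2062 in nonTx replicates 1 to 4. Here too Tx replicate 2 was the highest array after scaling, at 2.93 against 2.91 in nonTx replicate 4, and the log2 difference was -0.42 ± 0.35 (SE; limma, adjusted p = 0.587). H2-DMa and H2-DMb1 each had a further probe that stood well above background on none of the 8 arrays.

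Ciita, the coactivator, had the largest difference of the tested members. Its brightest probe had an intensity of 265, 953, 271 and 225 in Tx replicates 1 to 4, and of 390, 944, 725 and 1058 in nonTx replicates 1 to 4. After scaling, 3 of the 4 Tx arrays lay below all nonTx arrays and Tx replicate 2, at 1.93, lay just below the highest nonTx array, at 1.95. Ciita averaged 0.46 ± 1.01 in Tx and 1.35 ± 0.71 in nonTx on the log2 scale (SD, n = 4 each), a difference of -0.89 ± 0.48, or 1.86-fold lower in Tx (SE; limma, adjusted p = 0.432; exact two-sided permutation p = 0.2). Of the other 2 tested Ciita probes, both dim, one differed by -0.53 ± 0.34 (SE). The other was well above background on 1 of 4 Tx arrays and on 4 of 4 nonTx arrays, so it passed the filter through the higher group; it differed by -0.89 as measured and by -0.44 ± 0.34 (SE; limma, adjusted p = 0.578) with each array's values raised to at least the lowest signal well above background there. The last of its 4 probes stood well above background on none of the arrays.

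H2-Ob and H2-DMb2 could not be tested. H2-Ob, the beta chain of the H2-DM inhibitor H2-O, had scaled log2 values of -4.94, -5.07, -4.70 and -6.14 on its brightest probe in Tx replicates 1 to 4, and of -6.45, -4.34, -4.91 and -4.17 in nonTx replicates 1 to 4. It was well above background on 0 of 4 Tx arrays and on 2 of 4 nonTx arrays, replicates 2 and 4, and its other 2 probes on none. H2-DMb2, the second beta chain gene of H2-DM in the mouse, had an intensity between 2.76 and 3.34 in Tx and between 2.51 and 3.37 in nonTx, not well above background on any array. The promoters of both genes, printed above, hold an X and a Y box. No fold is given for either gene.

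Over the 7 tested members, 0 passed an adjusted p of 0.05 in limma and 0 had an unadjusted p under 0.05, the smallest being 0.0944 for Ciita. Across all 16495 tested genes 0.0% passed the adjusted threshold, 5.26% were lower in Tx at an unadjusted p under 0.05 and 8.67% were higher. All 7 members had a mean below that of nonTx, where 43.7% of all tested genes did and 56.3% lay above, and their median log2 difference was -0.53 against 0.03 over all tested genes. Of the 7 members, 0 had groups without overlap, where 2.94% of all tested genes lay lower on every Tx array and 5.13% higher. H2-Aa, H2-Eb1, Ciita and H2-DMa had differences at or below -0.5, as had 5.77% of all tested genes. The members varied more within groups than most tested genes, with a median SD of 0.75 against 0.19. They also moved together across arrays, so their counts are not counts of separate observations. The 95% confidence intervals all included 0 and were wide: from -1.97 to 0.18 for Ciita, from -1.16 to 0.20 for Cd74 and from -1.32 to 0.57 for H2-Ab1. A difference of 1 log2 unit downwards lay within the interval of each of the 7 members. With 4 arrays against 4 the exact test can reach 0.0286, and the members' values ran from 0.2 to 0.457.

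**Figure D2:**
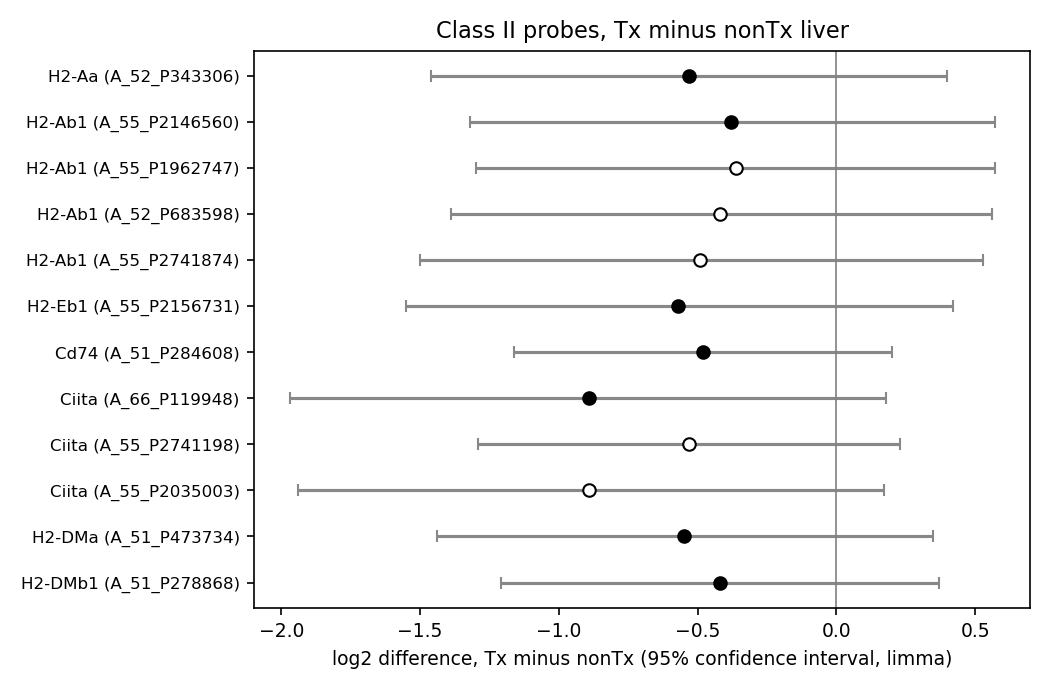
Log2 difference, Tx minus nonTx, of the 12 tested class II probes (points; filled, the brightest tested probe of a gene; open, its other tested probes) with 95% confidence intervals from limma (n = 4 arrays per group). All points lie below 0, between -0.89 and -0.36, and all intervals include 0. The lower open Ciita point is the probe well above background on 1 of 4 Tx arrays, which stands at -0.44 with the floor.

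The members moved together between arrays of the same group, and in 6 of the 7 the SD within groups was larger than the difference between them, Ciita being the exception. In all 7 tested members the 4 highest arrays after scaling were Tx replicate 2 and nonTx replicates 2, 3 and 4, and the 4 lowest were Tx replicates 1, 3 and 4 and nonTx replicate 1. The highest array was nonTx replicate 4 in 5 members and Tx replicate 2 in the other 2, H2-Ab1 and H2-DMb1. For H2-Ab1 this held on its brightest probe only, and its other tested probes were highest on nonTx replicate 4. The median deviation of the 7 members from their mean over the 8 arrays was -0.88, 0.76, -0.32 and -0.48 in Tx replicates 1 to 4, and -0.76, 0.47, 0.33 and 1.02 in nonTx replicates 1 to 4. The highest array exceeded the lowest by 3.11-fold in H2-DMb1 and by 4.86-fold in H2-Eb1. Within groups the members' SD ran from 0.54 for Cd74 to 0.87 for Ciita, with a median of 0.75, where the median over all tested genes was 0.19. Cd74 stood at the 92.4th percentile of this SD among tested genes and Ciita at the 97.8th.

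**Figure D3:**
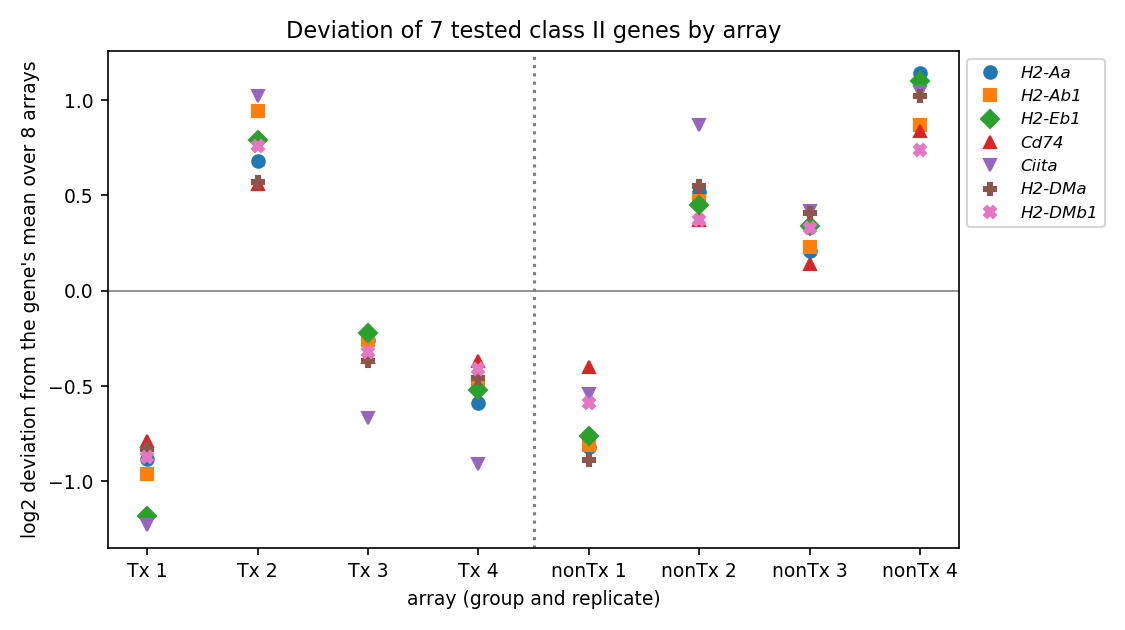
Log2 deviation of each of the 7 tested class II genes (symbols) from its own mean over the 8 arrays, by array (Tx replicates left of the dotted line, nonTx replicates right of it). All 7 genes lie above 0 on Tx replicate 2 and nonTx replicates 2 to 4 and below 0 on the other 4 arrays.

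The likeness of the members held gene by gene. Over the 21 pairs of tested members, Pearson's r across the 8 arrays ran from 0.94 to 0.99 and Spearman's rho from 0.86 to 1.0. Without the 2 arrays farthest from the middle, Tx replicate 1 and nonTx replicate 4, r ran from 0.91 to 0.99. These values are given as a description, since all members share the same arrays and their scaling and the arrays fell into a high and a low set. The SD of the log2 ratio between members ran from 0.12, for H2-Aa over H2-DMa, to 0.41, for Cd74 over Ciita, while the SD of a single member over the 8 arrays ran from 0.57 to 0.94. Relative to Cd74, a ratio within each array that does not depend on its scaling, Ciita differed between the groups by -0.41 (exact two-sided permutation p = 0.171; adjusted p = 0.8 over 6 ratios, exact permutation). The other 5 ratios to Cd74 differed by -0.09 to 0.10, and the groups overlapped in all 6.

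The size of the group difference depended on single arrays, although all 7 members stayed below 0 with any 1 array left out. The median difference of -0.53 became -0.82 without Tx replicate 2 and -0.89 without nonTx replicate 1, and it shrank to -0.29 without Tx replicate 1 and to -0.28 without nonTx replicate 4. Tx replicate 2 and nonTx replicate 1 stood on the side of the other group, so leaving either out had to widen the difference. Ciita differed by -1.38 ± 0.34 without Tx replicate 2 (SE; limma, adjusted p = 0.131), where 188 of all probes passed the adjusted threshold, and none of the members passed it with any array left out.

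**Figure D4:**
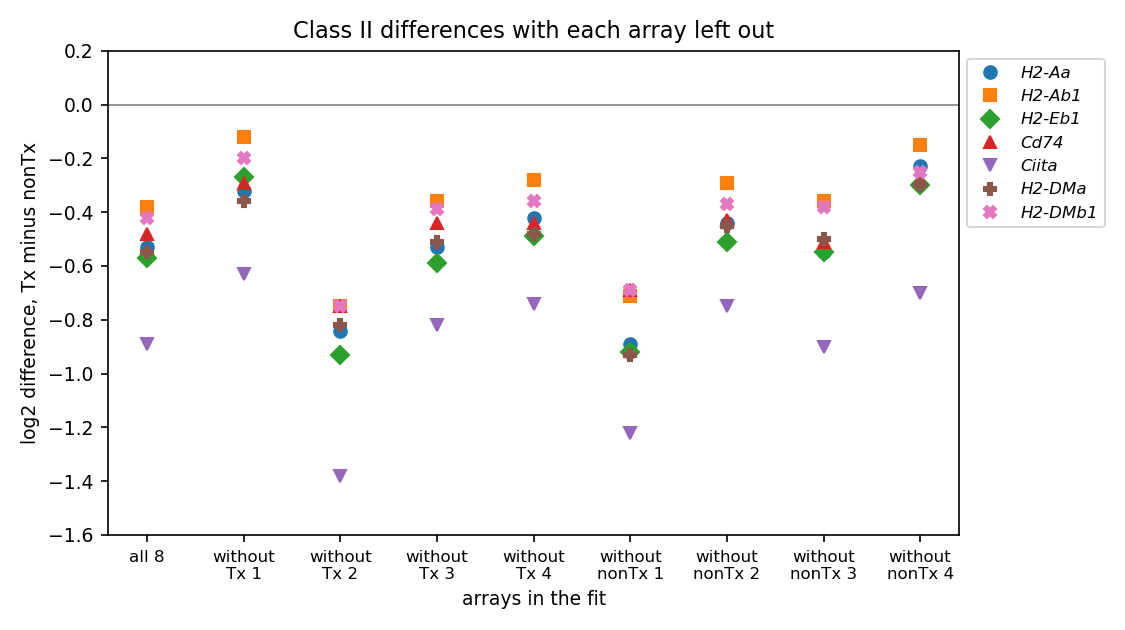
Log2 difference, Tx minus nonTx, of the 7 tested class II genes (symbols) with all 8 arrays and with each array left out in turn (horizontal axis). All values lie below 0, the lowest being -1.38 for Ciita without Tx replicate 2 and the highest -0.12 for H2-Ab1 without Tx replicate 1.

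Other genes of the pathway split in both directions. Of 20 listed genes of antigen processing, class II partners and promoter-binding proteins, 18 were tested, 6 below and 12 above 0, with a median of 0.06; 0 passed the adjusted threshold in limma, and at an unadjusted p under 0.05 there were 2 lower and 1 higher. This and the list counts that follow stand against 43.7% of all tested genes below 0, with 5.26% lower and 8.67% higher at an unadjusted p under 0.05. Rfx5, a subunit of the complex that binds the X box, had an intensity of 44.8, 36.9, 41.7 and 27.1 in Tx replicates 1 to 4, and of 54.9, 59.9, 70.7 and 61.7 in nonTx replicates 1 to 4. The groups did not overlap, all Tx arrays being lower, with a log2 difference of -0.58 ± 0.17 (SE; limma, adjusted p = 0.296). The other subunits of that complex, Rfxap and Rfxank, differed by 0.03 ± 0.10 and -0.13 ± 0.19 (SE).

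Marchf1, a ubiquitin ligase that sends surface class II for degradation, had an intensity of 1187, 2825, 257 and 1353 in Tx replicates 1 to 4, and of 3032, 2967, 3195 and 2917 in nonTx replicates 1 to 4. The nonTx arrays were alike and the Tx arrays spread widely, with replicate 3 lowest, and the log2 difference was -1.39 ± 0.55 (SE; limma, adjusted p = 0.352). Ctsd, an endosomal protease, differed by 0.21 ± 0.09 (SE; limma, adjusted p = 0.363). Ctss, the protease that cuts the invariant chain, and Ifi30, a reductase that unfolds antigens, named here after their values were seen, followed the members' arrays (r = 0.86 and 0.85 over the 8 arrays) yet differed by only 0.04 ± 0.23 and 0.01 ± 0.22 (SE) between the groups. H2-Oa, the partner chain of H2-Ob, differed by -0.27 ± 0.20 (SE) and was well above background on 2 of 4 Tx arrays and 4 of 4 nonTx arrays. H2-Ea, which would pair with H2-Eb1 and is annotated in the files as a pseudogene, had intensities of 2.67 to 3.27 in Tx and 2.68 to 3.52 in nonTx, and stood well above background on none of the arrays, as did both probes of H2-Eb2.

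Interferon gamma signalling induces Ciita. Of its 10 listed genes all were tested, 7 below and 3 above 0, with a median of -0.11; in limma 0 passed the adjusted threshold, and 1 was lower at an unadjusted p under 0.05. That one was Ifng itself, which was not well above background on any Tx array and entered the test through its nonTx signal. It differed by -1.19 ± 0.48 as measured (SE, limma adjusted p = 0.355). With the floor it differed by -0.45 ± 0.44 (SE, limma adjusted p = 0.661), its unadjusted p no longer under 0.05. As a bound on the means this is 1.37-fold lower in Tx, and nonTx replicate 2 stood far above the other nonTx arrays. The intensity of Ifng was 8.65, 12.3, 6.7 and 8.54 in Tx replicates 1 to 4, and 18.1, 63.8, 13.2 and 16.5 in nonTx replicates 1 to 4. Socs1, a feedback inhibitor of the pathway, differed by -0.50 ± 0.29 and Jak2, a receptor-bound kinase, by -0.15 ± 0.09 (SE), the second lower on every Tx array. The receptor chains Ifngr1 and Ifngr2 differed by -0.04 ± 0.09 and -0.08 ± 0.11 (SE).

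Of 6 costimulatory genes 3 were tested, all below 0, with 0 past the adjusted threshold and 0 at an unadjusted p under 0.05 in limma. Cd274, the checkpoint ligand PD-L1, had an intensity of 157, 654, 130 and 114 in Tx replicates 1 to 4, and of 234, 494, 611 and 418 in nonTx replicates 1 to 4. Its high and low arrays were those of the class II genes, with a log2 difference of -0.91 ± 0.53 (SE; limma, adjusted p = 0.455). Cd80 and Cd86, ligands of the T cell costimulator CD28, differed by -0.37 ± 0.18 and -0.01 ± 0.17 (SE).

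The genes outside the set whose values were most like the members' mean profile were Ly6g6e, Plekha2, Samhd1 and Psmb9, with r of 0.985, 0.984, 0.98 and 0.98 over the 8 arrays (rho 0.98, 0.98, 0.95 and 0.98). Taken as deviations from the group means, the closest were Ly6g6e, Hk3, Samhd1 and Psmb9, with r between 0.988 and 0.996. They were picked for this likeness from 16476 genes, of which 134 (0.813%) reached an r of at least 0.9, so no test is given. Psmb9, an inducible subunit of the immunoproteasome of the class I pathway, lies next to H2-DMb1 in the RefSeq gene order of chromosome 17. It had an intensity of 4702, 15052, 4648 and 4447 in Tx replicates 1 to 4, and of 4819, 9405, 9306 and 16454 in nonTx replicates 1 to 4, with a log2 difference of -0.40 ± 0.47 (SE; limma, adjusted p = 0.703). Samhd1, an enzyme that breaks down deoxynucleotides in myeloid cells, differed by -0.20 ± 0.24, and Hk3, the hexokinase of myeloid cells, by -0.25 ± 0.36 (SE).

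Markers of the cells that carry class II were measured beside the members. Of 12 dendritic cell markers 10 were tested, 8 below and 2 above 0, with a median of -0.18, and 1 had an unadjusted limma p under 0.05. One of the 8, Flt3, was well above background on 2 of 4 Tx arrays and 3 of 4 nonTx arrays, and its difference of -0.40 became 0.23 with the floor. The marker with the low p was Ccr7, a homing receptor also carried by naive T cells, at -0.81 ± 0.19 (SE; limma, adjusted p = 0.249). Clec9a, a marker of cross-presenting dendritic cells, differed by -0.40 ± 0.22 and Itgae by -0.36 ± 0.27 (SE), Itgax, the integrin CD11c, by 0.06 ± 0.30, and Xcr1 stood well above background on none of the arrays. The summed level of the tested dendritic markers ran from 41.1 to 108 times the array's 75th percentile in Tx and from 63.6 to 83.4 times in nonTx, but Siglech alone made up 90.2% to 96.7% of it, and without Siglech the sum ran from 3.57 to 4.69 in Tx and from 4.01 to 5.29 in nonTx. By array, the median deviation of the dendritic markers was -0.10, 0.07, -0.22 and -0.30 in Tx replicates 1 to 4, and -0.05, 0.05, 0.01 and 0.38 in nonTx replicates 1 to 4. It thus pointed the same way as the members on every array with a smaller swing. The medians of the interferon gamma and costimulatory lists also pointed the members' way on every array, so this was not particular to the dendritic markers. The part of dendritic cells in the class II pattern was not tested.

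Kupffer cell markers, of which all 12 were tested, had a median difference of 0.05, with 3 below and 9 above 0 and 0 at an unadjusted p under 0.05 in limma. Their median deviation was -0.28, 0.33, 0.08 and 0.06 in Tx replicates 1 to 4, and -0.32, -0.04, -0.03 and 0.23 in nonTx replicates 1 to 4, and their summed level ran from 168 to 260 in Tx and from 175 to 238 in nonTx. Across the 8 arrays 6 of the 12, Csf1r, C1qa, Timd4, C1qb, Adgre1 and C1qc, followed the class II genes' mean profile with r of 0.82 to 0.91. The list's median did so with r of 0.78, as did the dendritic list's with 0.78 and the interferon gamma list's with 0.86. At an r of at least 0.8 there were 2 of 10 dendritic, 2 of 10 monocyte, 3 of 10 interferon gamma and 0 of 9 B cell genes. The share of all tested genes at that r was not worked out, so none of these counts, that of the Kupffer markers included, can be called high or low. The 3 with the smallest p were all higher in Tx: Cd163, a scavenger receptor that ran opposite to the class II genes (r = -0.89), differed by 0.49 ± 0.24, Cd5l, a secreted macrophage protein, by 0.27 ± 0.16 and the folate receptor gene Folr2 by 0.26 ± 0.17 (SE). Monocyte and recruited macrophage markers, 10 of 10 tested, split into 5 below and 5 above 0, with 2 lower and 2 higher at an unadjusted p under 0.05 and a summed level of 254 to 417 in Tx and 169 to 254 in nonTx. Ms4a4c made up 33.1% to 70.0% of that sum, and without it the sum ran from 112 to 169 in Tx and from 111 to 149 in nonTx. Ms4a4c differed by 1.28 ± 0.36 and the integrin gene Itgam, on the brightest of its 2 tested probes, by -1.52 ± 0.53 (SE, limma adjusted p = 0.29 and 0.324). F13a1, one of the 2 lower, was well above background on 1 of 4 Tx arrays and 4 of 4 nonTx arrays, and with the floor it differed by -0.27 ± 0.20 (SE; limma, adjusted p = 0.564), its unadjusted p no longer under 0.05. These monocyte markers deviated most upwards on Tx replicate 2, at 0.62, and nonTx replicate 4, at 0.45, the arrays that also led the class II genes. Their part in the class II pattern was not tested.

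B cell markers lay on the other side of their mean from the class II genes on 6 of 8 arrays. Of 12 listed, 9 were tested, 5 below and 4 above 0, with a median of -0.01 and 1, Cr2, lower at an unadjusted limma p under 0.05, while Cd79a and Blk stood well above background on none of the arrays. Their median deviation was 0.14, -0.17, -0.10 and 0.24 in Tx replicates 1 to 4, and 0.24, -0.26, 0.09 and -0.07 in nonTx replicates 1 to 4, with a summed level of 3.95 to 5.18 in Tx and 4.41 to 5.35 in nonTx. On both arrays with the most class II signal, Tx replicate 2 and nonTx replicate 4, the B cell markers lay below their own mean, and their part in the class II pattern was not tested. Cr2, a complement receptor, differed by -0.45 ± 0.15, Cd79b, a chain of the B cell receptor, by 0.32 ± 0.18 and Cd22, an inhibitory receptor, by -0.28 ± 0.17 (SE; limma, adjusted p = 0.318, 0.45 and 0.461). Markers of the sinusoidal endothelium, 8 of 8 tested, had a median of 0.04 and a summed level of 132 to 157 in Tx and 132 to 137 in nonTx. Of these, 3 lay below and 5 above 0, with 0 at an unadjusted p under 0.05 in limma. Dnase1l3, Clec4g and Gpr182 differed by 0.22 ± 0.11, 0.17 ± 0.09 and 0.12 ± 0.10 (SE). Of 6 cholangiocyte markers 4 were tested, all below 0 with a median of -0.26 and 0 at an unadjusted p under 0.05 in limma. Sox9, Krt7 and Krt19 differed by -0.36 ± 0.25, -0.55 ± 0.39 and -0.16 ± 0.44 (SE). Krt7 was well above background on 1 of 4 Tx arrays and 3 of 4 nonTx arrays and stood at 0.09 with the floor. Of 8 hepatocyte markers, all tested, 3 lay below and 5 above 0, with a median of 0.01. Ttr alone had an unadjusted limma p under 0.05, at -0.37 ± 0.07 (SE, adjusted p = 0.181). It was lower on every Tx array, as were 2.94% of all tested genes. Fgb and Hnf4a differed by -0.13 ± 0.09 and -0.10 ± 0.08 (SE).

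**Figure D5:**
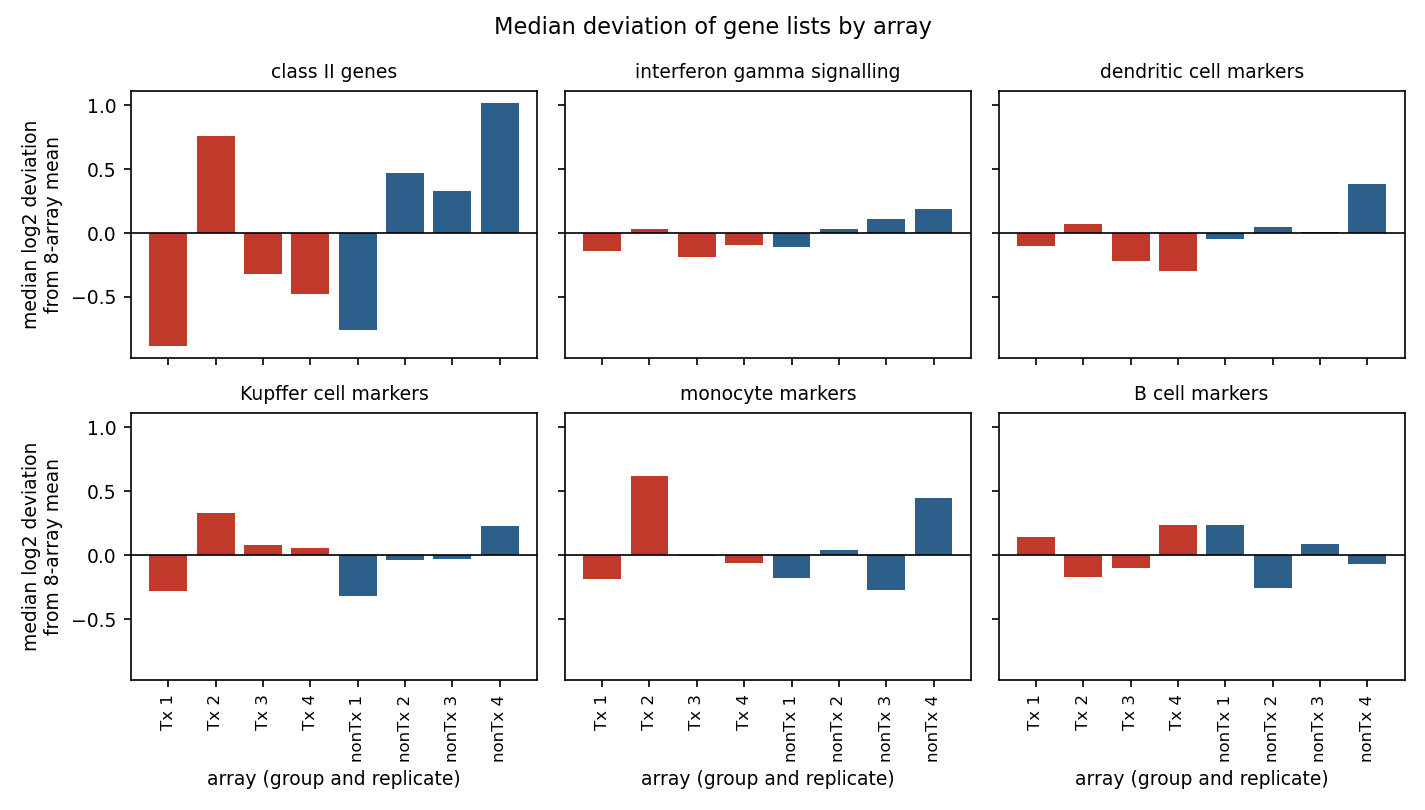
Median log2 deviation from the 8-array mean of the tested genes of 6 lists (panels), by array, with Tx replicates in red on the left and nonTx replicates in blue on the right. The class II genes swing from -0.88 on Tx replicate 1 to 1.02 on nonTx replicate 4, and the B cell markers from -0.26 on nonTx replicate 2 to 0.24.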

How the data were processed

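Cy3-labelled cRNA from 0.5 ug of liver RNA per sample was hybridised to one-colour Agilent arrays, per the labels. The deposited table and scanner files hold the intensity of each probe (62976 spots per array, 56605 probes), background-subtracted by Feature Extraction, which is version 10.7.1.1 per the file headers and 9.1 per the submitters' processing notes. The deposited log2 values were scaled by the authors to the 75th percentile, and every probe was centred on its own 8-array median, as found by rebuilding them within 0.00161.

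Here the table's intensities were taken as log2 minus each array's 75th percentile over all probes; outlier spots were set to missing (46 values among tested probes), and 0 spots were saturated. Symbols were updated through Entrez IDs with RefSeq: 43901 of 46119 annotated probes matched, and 0 member probes were added this way. Genes were represented by their brightest tested probe. Tx and nonTx were compared by limma's moderated test (version 3.58.1, R 4.3.3, eBayes with trend, Benjamini-Hochberg over 30955 probes, threshold 0.05), checked on simulated data; scipy 1.17.1 gave exact permutation tests. Precision is limited by having 4 arrays in each group. The fold of Ifng is a bound: its nonTx mean over the Tx mean of, on each array, its own value or the lowest signal well above background, whichever is higher. The shares over all genes are given once for all list counts; no list was tested as a set.

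Named were all members, the 3 genes with the smallest p per list, and the genes closest in profile; others beside them were picked with their values in view. The members and lists were chosen with earlier results of these data known. Alternatives were quantile normalization, median scaling, normexp (offset 50) on the median signal, the authors' values, other filters on dim probes, keeping outlier spots, a floor, limma without trend or with array weights, the replicate number as a block, averaging a gene's probes, and leaving out each array. Slide and scan blocks were not run because all arrays shared 1 slide and 1 scan. The values of 1 gene of the interferon gamma list are not reported here.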

Additional observations from a re-analysis of the deposited data

Results flagged for a closer look

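In 5 of 74 groups of 4 arrays checked, over the tested members and the genes named from the lists, 1 array stood far from the other 3 by Dixon's criterion on the gap to the nearest array over the group's range; chance gives about 1 in 20. None of these groups was of a class II member, whose gaps ran up to 0.755, for Ciita in Tx. Among Tx arrays, replicate 2 stood high for Socs1 (gap 0.882 of the range) and for Cd274 (0.899). Among nonTx arrays, replicate 2 stood high for Ifng (0.8292, just past the limit) and low for Ccr7 (0.947), and replicate 3 stood high for Jak2 (0.84).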

How the results depend on the processing

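All 7 members stayed below 0 and none passed the test's threshold of 0.05 (adjusted in limma, unadjusted in the exact permutation test) under any of 21 alternatives. By count, 147 of 147 gene values kept their direction and their side of the threshold. Many of these could not change direction. The authors' values, the filters on dim probes, the floor, keeping outlier spots, dropping the trend, the replicate block and the permutation test left the members' differences as they were. Under those only the p-values could move. The median difference of -0.53 ran from -0.89 to -0.28 with each array left out in turn, and the count of members called was 0 in each. It was -0.43 with scaling to the array median, which moves the median of all probes to 0.12 against 0.01, and -0.58 with quantile normalization. Replicates share numbers between the groups, and each number also marks a column of the slide. Over all tested probes the deviations of same-numbered arrays correlated only from -0.01 to 0.099, so the numbers were not taken to pair the arrays. Among the members, replicate 1 was low in both Tx and nonTx (median deviation -0.88 and -0.76) and replicate 2 high in both (0.76 and 0.47). Replicates 3 and 4 lay below the mean in Tx and above it in nonTx. With the replicate block the median difference was -0.53, 0 members passed the adjusted threshold and 1 had an unadjusted p under 0.05 (Ciita, limma adjusted p = 0.335), and 1 probe of all was called, against 0 without it. The block lowered every member's SE, from 0.48 to 0.30 for Ciita and from 0.31 to 0.20 for Cd74, whose unadjusted limma p was 0.0501. Over all probes the count called was 0, and 6 with median scaling, 2 with normexp, 7 with array weights and 188 without Tx replicate 2, with 0 to 3 under the other alternatives run over all probes; the cause was not tested. H2-Ob and H2-DMb2 lay too near the background for a difference to be measured.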

Other observations

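Of the 24 genes whose promoter window held an X or X2 box followed by a Y box, 19 were not among the class II members, and 17 of these were tested. Their r with the members' mean profile over the 8 arrays ran from -0.66 for Dusp8 to 0.72 for Thada, with a median of -0.24, and 0 reached 0.9, while the 3 tested members with these boxes, H2-Aa, H2-DMb1 and H2-Eb1, each stood at 0.99, which is partly their own weight in that mean. Thada differed by -0.43 ± 0.14 (SE; limma, adjusted p = 0.314), and Rpl13, a ribosomal protein gene, by 0.22 ± 0.09 (SE; limma, adjusted p = 0.35). This list was made after the data were seen.

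Marchf1, which removes class II from the cell surface, and Itgam, an integrin of myeloid cells, each had their Tx arrays in the order replicate 2, 4, 1 and 3 from high to low. On the brightest of its 2 tested probes, Itgam had an intensity of 2093, 6128, 637 and 2814 in Tx replicates 1 to 4, and of 7760, 6695, 7828 and 5967 in nonTx replicates 1 to 4. The values of its other probe are not given, so whether it runs alike is not shown. Both genes had nonTx arrays that lay close together, unlike the class II genes, in which nonTx replicate 1 was low. These genes were set side by side after their values were seen, and no test is given.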
